A study of Oryctolagus cuniculus with 12 samples.

Results

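The genes described here are 10 genes that the tumor suppressor p53 is known to switch on: CDKN1A, MDM2, BAX, BBC3, FAS, SESN1, CCNG1, ZMAT3, GDF15 and TP53INP1. A row of the expression table was a member when its gene symbol was one of these names, and 5 of the 29587 rows met this rule, namely BAX, BBC3, SESN1, ZMAT3 and TP53INP1. The rows of CDKN1A, MDM2, FAS and CCNG1 bore no symbol and were recognised by the protein name in their description, so they are given beside the 5 members and counted apart from them. GDF15 was not analysed here.

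p53 is a transcription factor that is kept scarce by MDM2, a ubiquitin ligase that marks it for degradation. When DNA is damaged or ribosomes are disturbed, p53 is released from MDM2 and raises genes that halt the cell cycle, genes that start apoptosis, genes that repair DNA or limit oxidative stress, and MDM2 itself, which closes a feedback loop. 5-Fluorouracil (5-Fu) is a pyrimidine analog that blocks thymidylate synthase and enters RNA and DNA, and it is a textbook activator of this response in dividing cells. In hypertrophic scars the drug is injected to restrain the fibroblasts that lay down collagen.

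The samples were full thickness skin or scar tissue from the ears of female wild-type rabbits aged 10 to 12 weeks. There were 3 samples in each of 4 groups. The study kept 3 rabbits a group, separate between groups, and describes the 3 samples of a group as biologically independent. It does not state outright that they came from 3 animals, so p-values measure the spread between these samples. NS was normal ear skin without a wound or a treatment. HS was untreated hypertrophic scar, grown from wounds on the ventral ear with 4 lesions per ear. In the drug-loaded MNs group, each scar received a patch of separating microneedles on days 22, 29 and 36, with tips of photo-crosslinked gelatin that carried a peptide prodrug of 5-fluorouracil acetic acid (5-FuA) and responded to matrix metalloproteinases and reactive oxygen species. In the 5-Fu injection group, each scar was injected with free 5-Fu on those same days, 120 μg in 0.1 mL per lesion. All tissues were taken on day 43, 1 week after the last dose, so the early hours of a p53 response were not sampled. HS had neither a vehicle injection nor an empty patch, so the drug cannot be told apart from the puncture or the carrier in the comparisons with HS.

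Expression was deposited as FPKM, the fragments on a gene after division by its exon length and by a size factor of the sample. Relative to the reads on genes, this factor was 1.12 to 1.20 in NS and 0.873 to 0.932 in HS. It was 0.959 to 1.02 with drug-loaded MNs and 0.953 to 1.03 after 5-Fu injection. The deposited values thus carry a scaling that differs between NS and HS, and rescaling to total reads, used below, removes it. How the factor was set is not given in the sources used here. Reads on genes, counted back from these values, ranged from 10521472 to 14043667 per sample. Markers of the layers of the ear were present: the summed FPKM of 6 fibroblast genes was 37365 to 48655 in HS and 2402 to 3378 in NS, and that of 6 of 7 listed keratinocyte genes was 1316 to 1932 in HS and 2134 to 3722 in NS. Most of the fibroblast sum was collagen RNA, from COL1A1, COL1A2 and COL3A1. Their means were 15711, 14066 and 8262 FPKM in HS and 772, 775 and 549 FPKM in NS. In the 5-Fu injection group the fibroblast sum was 4970, 26667 and 6640 for replicates 1, 2 and 3, so replicate 2 stood nearer to HS than the other 2 samples. Its keratinocyte sums were 5382, 2759 and 3016 FPKM, each above the HS range. The drug-loaded MNs samples had fibroblast sums of 18858 to 27064 and keratinocyte sums of 3685 to 8645. None of the fibroblast or keratinocyte markers found was under 0.5 FPKM throughout, whereas the muscle gene TTN was under 0.5 FPKM in all 12 samples. The fibroblast sum was thus lower and the keratinocyte sum higher in each injected scar than in each untreated scar. On average 5 of the 6 keratinocyte genes were higher after injection, but DSG1 averaged 43.5 FPKM there and 45.9 FPKM in HS. Whether the sums followed the makeup of the tissue or the RNA per cell was not tested, nor was their part in the values below.

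The first comparison asked which of these genes differed between injected and untreated scars a week after the last 5-Fu dose. A gene was called when its adjusted p from limma, a linear model fitted across the 13287 genes whose FPKM averaged 1 or more, was under 0.05 and its log2 fold change was above 1 in size. By this rule 0 of the 5 members was called, and 2.29% of all genes tested were called. None of the 4 genes recognised by description was called either. At an unadjusted p under 0.05, 1 member was higher (BBC3) and 2 were lower (ZMAT3 and TP53INP1), against 11.6% of all genes higher and 14.4% lower. The 2 groups did not overlap in these same 3 of 5 members, against 30.3% of all genes. The median log2 fold change of the 5 members was 0.17 and that of all genes was 0.02.

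**Figure D1:**
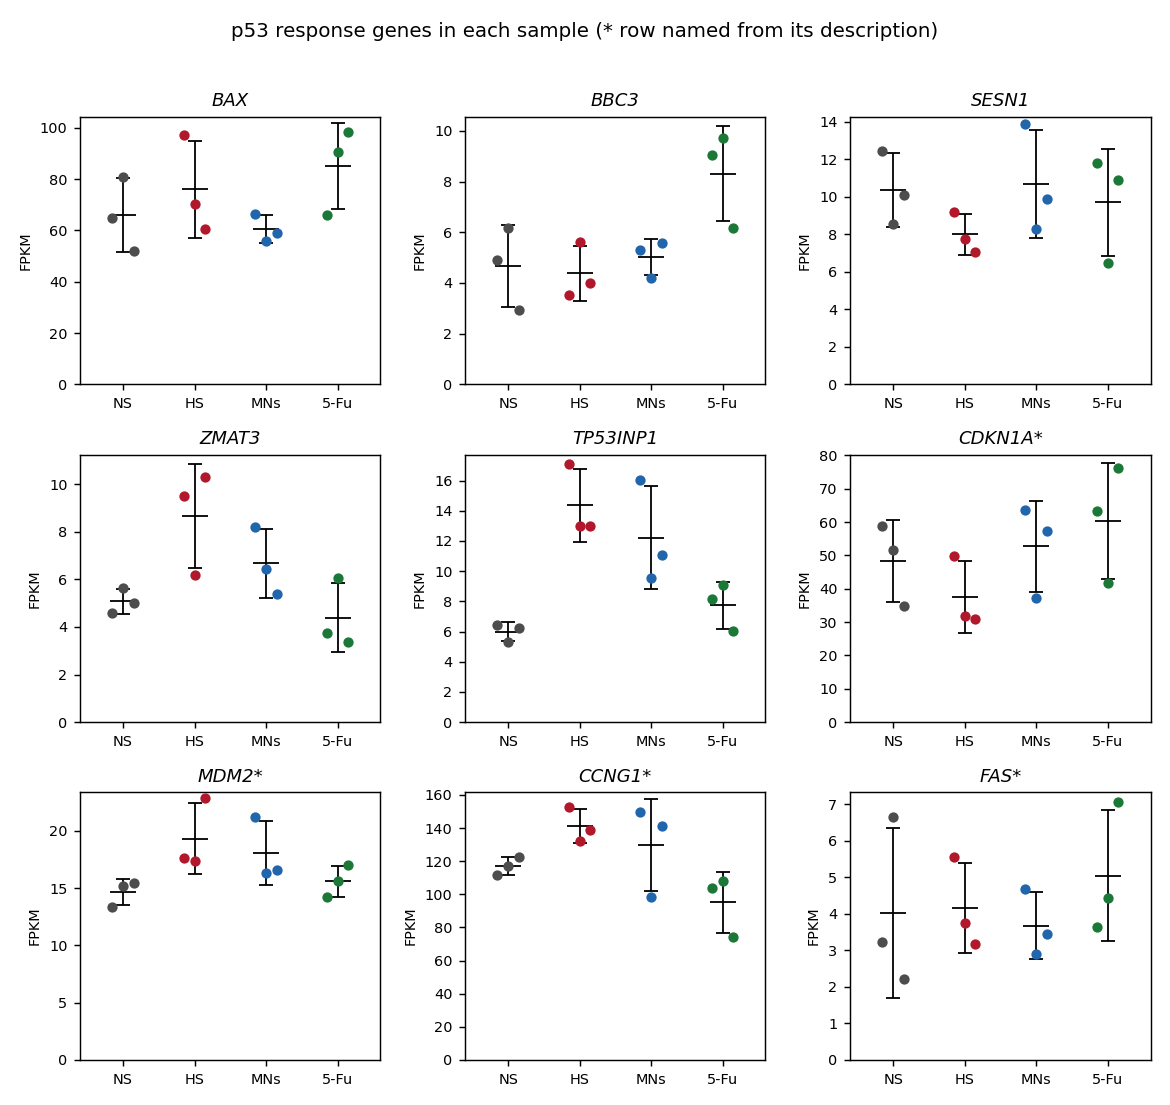
FPKM of each gene in each of the 12 samples (1 point a sample, 4 groups of 3), with the group mean ± SD in black, each gene on its own vertical axis from 0 and an asterisk at rows named from their description. BBC3 had its 3 highest values in the 5-Fu injection group, from 6.18 to 9.73 FPKM, whereas TP53INP1 had its HS values between 12.96 and 17.1 FPKM, above each 5-Fu injection sample.

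BBC3 encodes PUMA, a BH3-only protein that frees BAX and BAK to open the mitochondrial membrane. Its row (ENSOCUG00000037839, 549 bases of exon on scaffold GL018835, 532214 to 535975, minus strand, in a build not given in the sources used here) had FPKM values of 9.03, 9.73 and 6.18 in the 5-Fu injection samples and of 3.54, 5.61 and 4.01 in the HS samples. Each injected scar lay above each untreated scar. The mean was 8.32 ± 1.88 FPKM (SD, n = 3) after injection and 4.39 ± 1.08 FPKM in HS, a ratio of 1.90. The log2 fold change on the log2(FPKM + 1) scale, which understates changes of low genes and is used throughout, was 0.79 with a standard error of 0.25 (95% interval 0.24 to 1.34, adjusted p from limma 0.0868), which did not pass the threshold. The row is shallow, with 62, 55 and 41 reads after injection and 21, 35 and 27 in HS. Over 16 alternative settings its fold change stayed between 0.67 and 0.96, with adjusted p from 0.0634 to 0.212.

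The NS values of BBC3 were 4.90, 6.16 and 2.95 FPKM and the drug-loaded MNs values were 5.31, 4.21 and 5.57 FPKM, so the injected scars were above both groups without overlap, by a margin of 6.18 to 6.16 FPKM for NS. In log2 terms BBC3 differed by 0.74 from NS (standard error 0.25, adjusted p from limma 0.241) and by 0.61 from drug-loaded MNs (standard error 0.25, adjusted p 0.306). The 3 comparisons share the injected samples, so they are not separate pieces of evidence. NS, HS and drug-loaded MNs overlapped in BBC3 among themselves.

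BAX, the pore-forming protein of the mitochondrial outer membrane, was the most highly expressed member with a symbol, at a mean of 71.9 FPKM over the 12 samples. Its row (ENSOCUG00000006423, scaffold GL019028, 90719 to 94100, minus strand) had values of 66.2, 90.5 and 98.3 FPKM after injection, 97.2, 70.4 and 60.5 FPKM in HS, 66.5, 55.9 and 58.9 FPKM with drug-loaded MNs, and 64.9, 80.9 and 52.0 FPKM in NS. The injected and untreated scars overlapped, since HS replicate 1 nearly equalled the highest injected sample. BAX had a log2 fold change against HS of 0.17 with a 95% interval from -0.31 to 0.65 (adjusted p from limma 0.662). The whole interval lay below a log2 difference of 1.

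FAS is the death receptor that starts the extrinsic route to apoptosis, and it was the lowest of the rows, at a mean of 4.23 FPKM. The row recognised by its description (ENSOCUG00000008202, chromosome 18, 36905971 to 36936701, plus strand) held 3.63, 4.44 and 7.06 FPKM after injection and 5.54, 3.74 and 3.18 FPKM in HS. Its log2 fold change was 0.22 with a wide interval from -0.51 to 0.94 (adjusted p from limma 0.711), and without 5-Fu injection replicate 3 it was -0.01. Of the 3 death genes, therefore, BBC3 alone had injected samples that stood clear of HS.

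CDKN1A encodes p21, the cyclin-dependent kinase inhibitor through which p53 arrests the cell cycle. Its row (ENSOCUG00000016048, chromosome 12, 26615148 to 26621177, plus strand) held 63.2, 41.7 and 76.1 FPKM in the injected scars, 49.9, 31.8 and 30.9 FPKM in HS, 63.5, 37.3 and 57.5 FPKM with drug-loaded MNs and 58.8, 51.5 and 34.9 FPKM in NS. HS had the lowest mean, 37.5 ± 10.7 FPKM (SD, n = 3), and the 5-Fu injection group the highest, 60.3 ± 17.4 FPKM, but each group overlapped with each other one. CDKN1A had a log2 fold change of 0.66 in injected scars against HS (standard error 0.29, 95% interval 0.02 to 1.31, adjusted p from limma 0.182), which ran from 0.48 to 0.90 over the alternatives, none of which brought the adjusted p under 0.0769.

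MDM2, the ligase that removes p53, had a row on chromosome 4 (ENSOCUG00000010899, 47739150 to 47811715, plus strand), the highest of 5 rows that bear its protein name. It held 14.2, 15.6 and 17.0 FPKM after injection and 17.7, 17.4 and 22.9 FPKM in HS, so each injected scar lay below each untreated scar. MDM2 had a log2 fold change of -0.28 (standard error 0.15, 95% interval -0.62 to 0.05, adjusted p from limma 0.267). In NS the values were 13.3, 15.2 and 15.4 FPKM, and with drug-loaded MNs they were 21.3, 16.3 and 16.6 FPKM. MDM2 was thus no higher in any injected scar than in the lowest untreated scar on day 43.

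CCNG1 encodes cyclin G1, which recruits a phosphatase to MDM2 and acts in the feedback on p53. It was the most abundant of the rows per length (ENSOCUG00000002129, chromosome 3, 44665155 to 44671337, plus strand, the highest of 5 rows with this protein name). Its values were 104, 108 and 74.1 FPKM after injection, 153, 132 and 139 FPKM in HS, 150, 98.2 and 142 FPKM with drug-loaded MNs and 111, 117 and 123 FPKM in NS. The injected scars lay below both HS and NS without overlap, though narrowly below NS. The mean was 95.3 ± 18.4 FPKM (SD, n = 3) after injection and 141 ± 10.5 FPKM in HS. On the log2 scale the difference was -0.58 (standard error 0.19, 95% interval -0.99 to -0.17, adjusted p from limma 0.0893).

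SESN1, a sestrin that restrains mTORC1 and protects against peroxides, did not separate the scars. Its row (ENSOCUG00000011814, chromosome 12, 96932067 to 97049433, minus strand) held 11.8, 6.46 and 10.9 FPKM after injection, 9.18, 7.74 and 7.03 FPKM in HS, 13.9, 8.25 and 9.87 FPKM with drug-loaded MNs and 12.4, 8.52 and 10.1 FPKM in NS. Injection against HS gave a log2 fold change of 0.22 (95% interval -0.31 to 0.75, adjusted p from limma 0.595).

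ZMAT3, also called Wig-1, is a zinc finger protein that binds RNA and affects splicing and mRNA stability. In its row (ENSOCUG00000004658, chromosome 14, 74371491 to 74497748, minus strand) the HS samples had 9.49, 6.17 and 10.3 FPKM and the 5-Fu injection samples 3.74, 6.04 and 3.38 FPKM. The groups did not overlap, although the lowest HS sample and the highest injected sample were close. HS averaged 8.66 ± 2.19 FPKM (SD, n = 3), which was 1.97 times the 4.39 ± 1.44 FPKM of the injected scars. ZMAT3 thus had a log2 fold change of -0.85 (standard error 0.24, 95% interval -1.37 to -0.33, adjusted p from limma 0.0632). NS had 4.58, 5.63 and 5.02 FPKM, within the range of the injected scars.

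TP53INP1, a stress protein of autophagy and of p53 phosphorylation, had the smallest adjusted p of the members. Its row (ENSOCUG00000016241, chromosome 3, 110541562 to 110555252, minus strand) held 17.1, 12.97 and 12.96 FPKM in HS and 8.14, 9.05 and 6.02 FPKM after injection. HS averaged 14.4 ± 2.40 FPKM (SD, n = 3) and the injected scars 7.74 ± 1.56 FPKM, so that HS was 1.86 times as high. The log2 fold change was -0.82 (standard error 0.21, 95% interval -1.28 to -0.36), with an adjusted p from limma of 0.0514.

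For ZMAT3 and TP53INP1 the highest injected sample was replicate 2, the sample with the fibroblast sum nearest to HS. BBC3 was highest there too, and its 9.73 FPKM was the injected value farthest from HS. With the rows recognised by description, 4 genes were highest in replicate 2, 4 in replicate 3 and 1 in replicate 1. Without replicate 2 ZMAT3 had a log2 fold change of -1.06 and was called (adjusted p from limma 0.0215). TP53INP1 then had -0.93 (adjusted p 0.0324), still under the fold threshold. The count of all genes called was 304 with this replicate and 803 without it. TP53INP1 also came under 0.05 with a mean FPKM of at least 5 (0.0439) and with limma voom on reads (0.0472). In bulk tissue, fewer cells that express a gene and less of its RNA per cell cannot be told apart, and the part of the fibroblast share in these values was not tested.

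**Figure D2:**
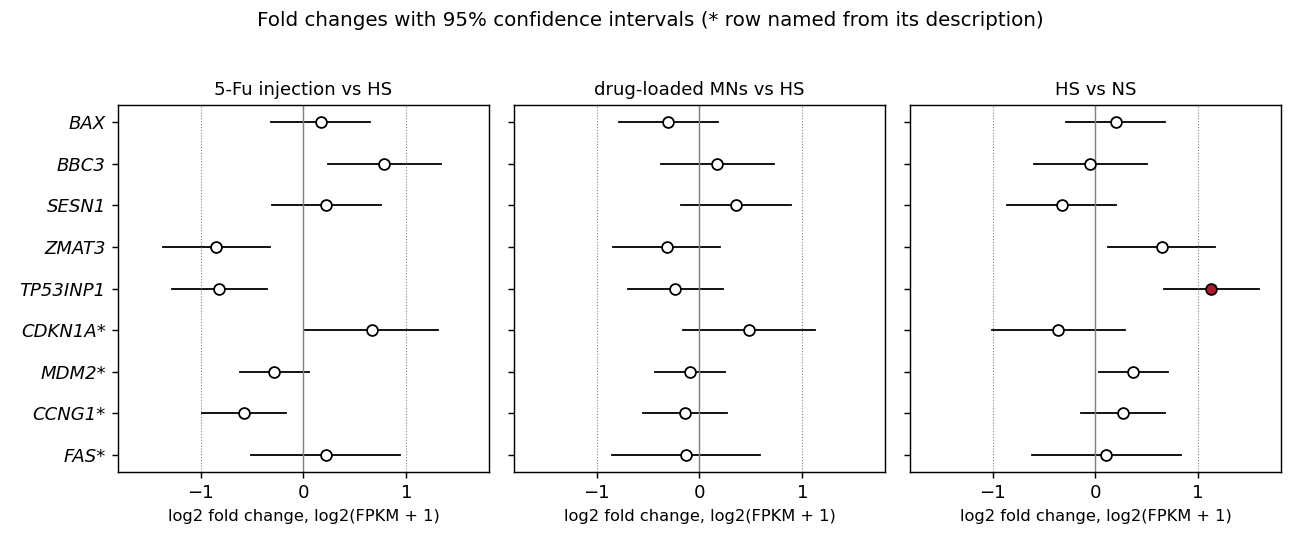
Log2 fold change of each gene on the log2(FPKM + 1) scale for 5-Fu injection against HS, drug-loaded MNs against HS and HS against NS (points, limma, filled where called), with 95% intervals as horizontal lines and an asterisk at rows named from their description. Against HS, the intervals after 5-Fu injection lie above 0 for BBC3 and CDKN1A and below 0 for CCNG1, ZMAT3 and TP53INP1, before adjustment for the genes tested, and those for drug-loaded MNs cross 0 in each row.

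Drug-loaded MNs were compared with HS to ask whether the prodrug patches moved the same genes. 0 of the 5 members was called, against 0.00753% of all genes tested, and 0 was past an unadjusted p under 0.05, against 8.90% of all genes. The groups overlapped in each of the 5 members and in the 4 genes recognised by description, while 18.9% of all genes did not overlap. TP53INP1 values with drug-loaded MNs were 16.0, 9.51 and 11.1 FPKM (log2 fold change -0.24, 95% interval -0.70 to 0.22, adjusted p from limma 0.798), and ZMAT3 values were 8.22, 6.45 and 5.37 FPKM (-0.32, interval -0.84 to 0.20, adjusted p 0.743). The interval was -0.38 to 0.72 for BBC3, -0.78 to 0.18 for BAX and -0.18 to 0.89 for SESN1, so that a log2 difference of 1 in either direction lay outside the interval of each of the 5 members. CDKN1A was at 0.48, with an interval from -0.16 to 1.12 that contains 1. This comparison and that of injection with HS share the HS samples.

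Set directly against drug-loaded MNs, the injected scars had 0 of 5 members called, and 0% of all genes were called. At an unadjusted p under 0.05, BBC3 was higher and ZMAT3 and TP53INP1 were lower, which is 3 of 5 members against 15.1% of all genes. The groups did not overlap in BBC3 (log2 fold change 0.61) and TP53INP1 (-0.58, standard error 0.21, 95% interval -1.04 to -0.12, adjusted p from limma 0.277), 2 of 5 members against 17.1% of all genes. ZMAT3 had -0.53 (adjusted p 0.324), BAX had 0.47 (adjusted p 0.340) and SESN1 had -0.13 (adjusted p 0.814). The dose in a patch is not given in the labels, and the patches held 5-FuA and not 5-Fu, so this comparison is not one of matched doses or of the same compound.

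The scar itself was compared with normal skin, and here 1 of the 5 members was called, TP53INP1, against 5.00% of all genes tested and 3.53% called higher. TP53INP1 values were 6.44, 5.27 and 6.26 FPKM in NS, below each of the 3 HS samples. It rose by 1.13 on the log2 scale (standard error 0.21, 95% interval 0.67 to 1.59, adjusted p from limma 0.00981), with an HS mean that was 2.40 times the NS mean of 5.99 ± 0.630 FPKM (SD, n = 3). Its adjusted p stayed between 0.00822 and 0.0419 over the alternatives. When the values were rescaled to the total of reads, the median of all genes moved to -0.33 and TP53INP1 had a log2 fold change of 0.80 (adjusted p 0.0257), which was under the fold threshold.

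ZMAT3 was also above NS in each HS sample, with a log2 fold change of 0.64 (standard error 0.24, 95% interval 0.13 to 1.16, adjusted p from limma 0.128), which makes 2 of 5 members without overlap against 33.3% of all genes. MDM2 (0.37, adjusted p 0.178) and CCNG1 (0.27, adjusted p 0.429) were likewise higher in HS without overlap, though CCNG1 turned to -0.09 after rescaling to total reads. Over the alternatives that kept all samples, MDM2 ran from 0.025 to 0.39 and ZMAT3 from 0.33 to 0.74. BBC3 (-0.05, adjusted p 0.930), BAX (0.20, adjusted p 0.627), SESN1 (-0.33, adjusted p 0.455), CDKN1A (-0.36, adjusted p 0.502) and FAS (0.11, adjusted p 0.878) overlapped. The HS samples serve in this comparison and in that with 5-Fu injection, so a low or high HS value moves both.

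Against NS, the injected scars had 0 of 5 members called, with 0.00753% of all genes called. BBC3 was the 1 member past an unadjusted p under 0.05, against 14.9% of all genes, and the 1 member without overlap, against 18.8% of all genes. TP53INP1 had a log2 fold change of 0.31 (95% interval -0.15 to 0.77, adjusted p from limma 0.491) and ZMAT3 of -0.20 (interval -0.72 to 0.32, adjusted p 0.705). The order of the TP53INP1 group means was NS, 5-Fu injection, drug-loaded MNs and HS, and of these neighbors 5-Fu injection and drug-loaded MNs did not overlap in single samples, while NS overlapped with 5-Fu injection and drug-loaded MNs with HS.

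Of the genes that regulate p53 or belong to its family, 9 of 11 listed ones had a row and 8 were tested. None was called in any of the 5 comparisons, in which 0% to 5.00% of all genes were called. The tested genes lay between -0.15 and 0.22 in the comparison of injection with HS. The highest was the p53 family member TP63, which is also among the keratinocyte genes summed above. There 0 of 8 was past an unadjusted p under 0.05, against 11.6% of all genes higher and 14.4% lower. The groups did not overlap in 0 of 8, against 30.3% of all genes. Against NS, the phosphatase gene PPM1D had -0.34 (adjusted p from limma 0.469) and USP7, a deubiquitinase of p53 and MDM2, had -0.22 (adjusted p 0.507) in injected scars.

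A longer list of other p53 target genes had rows for 27 of 32 genes, 25 of them tested. After 5-Fu injection 0 of 25 was called against HS, against 2.29% of all genes. At an unadjusted p under 0.05, 4 were higher and 2 lower, against 11.6% and 14.4% of all genes, and 15 of 25 had a log2 fold change above 0, against 51.4% of all genes. Their median was 0.21 with the rows recognised by description and 0.10 over the 21 genes named by symbol. DDB2, a subunit of the complex that recognises ultraviolet damage in DNA, was the 1 gene with an adjusted p under 0.05, against 4.40% of all genes. It had 52.0, 33.1 and 37.5 FPKM in injected scars and 18.3, 20.9 and 21.7 FPKM in HS, with no overlap. Its log2 fold change was 0.95 (standard error 0.20, adjusted p from limma 0.0333), just under the fold threshold. The adjusted p was under 0.05 in 8 of 16 alternatives and ran from 0.0152 to 0.0991, and DDB2 was called without 5-Fu injection replicate 2 (1.09) and after rescaling to total reads (1.08).

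DDB2 was also above HS without overlap with drug-loaded MNs, at 24.9, 34.7 and 41.9 FPKM (0.68, adjusted p from limma 0.335), and its NS values of 31.5, 29.4 and 31.0 FPKM stood above HS too (HS against NS -0.57, adjusted p 0.114). Each untreated scar thus had less DDB2 than each sample of the other groups. NINJ1, which ruptures the membrane of dying cells, had 0.77 after injection (adjusted p 0.170). EDA2R, a receptor of ectodysplasin, had -0.77 (adjusted p 0.111), at 0.897, 1.82 and 1.04 FPKM after injection and 2.33, 2.78 and 3.33 FPKM in HS. Its highest injected sample was again replicate 2.

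With drug-loaded MNs, 0 of the 25 other targets was called, 3 were higher and 2 lower at an unadjusted p under 0.05 (4.78% and 4.12% of all genes), and 5 did not overlap with HS, against 18.9% of all genes. The largest of those were PERP, a desmosome protein of keratinocytes (1.30, adjusted p from limma 0.295), the kinase gene PLK3 (0.92, adjusted p 0.375) and DDB2. PERP shares its protein name with a further row, so its value is uncertain. PERP had 816, 931 and 1507 FPKM with drug-loaded MNs and 445, 414 and 417 FPKM in HS, in samples whose keratinocyte sums were 3685 to 8645 and 1316 to 1932 FPKM. The part of the keratinocyte share in the PERP values was not tested.

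Between HS and NS, 0 of 25 other targets was called, against 5.00% of all genes. At an unadjusted p under 0.05, 5 were higher and 4 lower, against 13.2% and 10.2% of all genes, and 12 of 25 had groups that did not overlap, against 33.3% of all genes. PHLDA3, an inhibitor of AKT, had -0.95 (adjusted p from limma 0.0569), and EDA2R had 0.94 (adjusted p 0.0607). RRM2B and GADD45A, named after their values were seen, had an adjusted p under 0.05, against 7.45% of all genes. RRM2B, the p53-inducible ribonucleotide reductase subunit, had 2.48, 2.23 and 2.19 FPKM in HS and 5.90, 5.17 and 4.34 FPKM in NS (-0.89, adjusted p 0.0287), and GADD45A, a growth arrest gene, had 102, 80.8 and 57.7 FPKM in HS and 46.4, 40.8 and 52.2 FPKM in NS (0.75, adjusted p 0.0475). RRM2B was thus lower and GADD45A higher in scar, both short of the fold threshold. RRM2B stayed under 0.05 in 9 of 15 alternatives and GADD45A in 4 of 16, and RRM2B passed the fold threshold with a pseudocount of 0.1 (-1.12), with voom (-1.15) and after rescaling to total reads (-1.17).

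**Figure D3:**
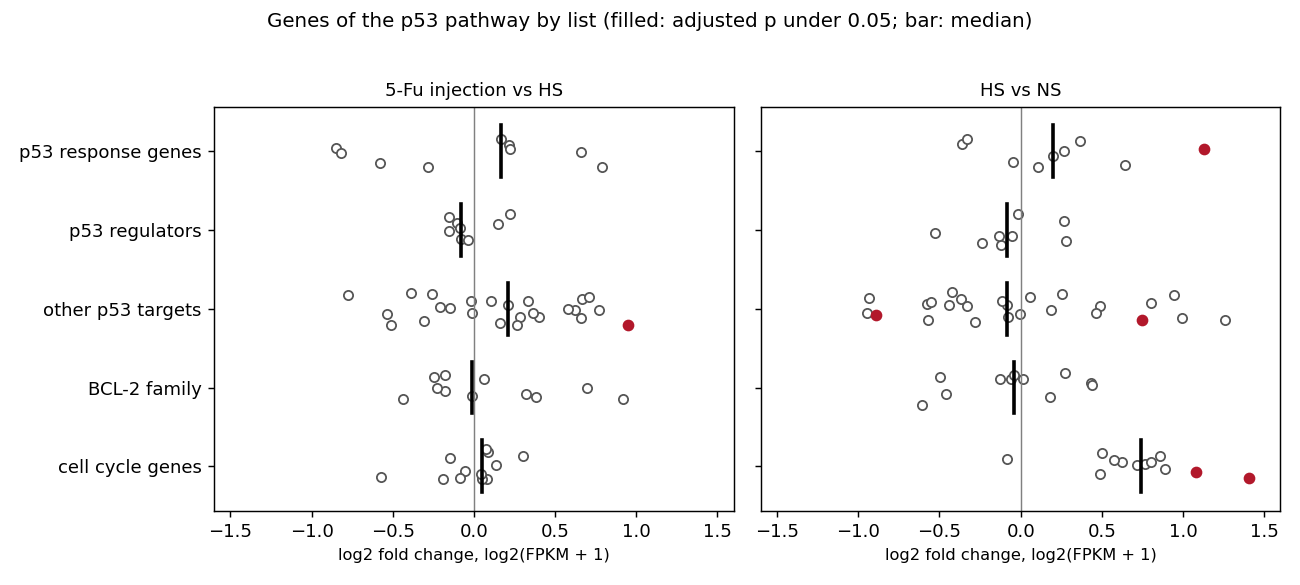
Log2 fold change on the log2(FPKM + 1) scale of each tested gene (points, filled where the adjusted p from limma was under 0.05) by list, for 5-Fu injection against HS on the left and HS against NS on the right, with the median of each list as a bar. The medians after 5-Fu injection were 0.17 for the members and 0.21 for the other p53 targets, both with rows recognised by description, while single genes ranged from -0.85 to 0.95.

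Of the BCL-2 family, which decides on mitochondrial apoptosis with BAX and BBC3, all 13 listed genes had a row and 11 were tested. After injection 0 of 11 was called, against 2.29% of all genes, and the median was -0.01. At an unadjusted p under 0.05, 1 was higher and 1 lower, shares below the 11.6% and 14.4% of all genes. BAD, a BH3-only protein that growth factor signals keep inactive, had 6.17, 8.03 and 6.80 FPKM in injected scars, 4.36, 2.73 and 2.74 FPKM in HS, 2.75, 2.85 and 5.11 FPKM with drug-loaded MNs and 5.67, 5.39 and 3.54 FPKM in NS. The injected scars were above each sample of the other 3 groups, with a log2 fold change against HS of 0.92 (standard error 0.24, adjusted p from limma 0.0561). It came under 0.05 in 1 of 15 alternatives, after rescaling to total reads (1.02, adjusted p 0.0467). The BAD row was recognised by its description and is the higher of 2 rows with that name.

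BCL2A1, a survival protein induced by NF-κB and typical of leukocytes, had 57.5, 51.4 and 35.6 FPKM after injection and 24.4, 32.8 and 29.6 FPKM in HS (0.70, adjusted p from limma 0.202). The summed immune cell markers were 66.7 to 197 FPKM in the injected scars and 73.8 to 81.9 FPKM in HS, and their part in the BCL2A1 values was not tested. That sum holds 5 of 6 listed genes, of which 4 had a log2 fold change above 0 and the lowest had -1.35. Within it, LYZ ran from 1.19 to 85.5 FPKM after injection and from 18.7 to 25.4 FPKM in HS. With drug-loaded MNs, BAK1, which opens the membrane as BAX does, had -0.34 (adjusted p 0.775). In HS against NS the survival gene BCL2L1 had -0.61 (adjusted p 0.214).

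**Figure D4:**
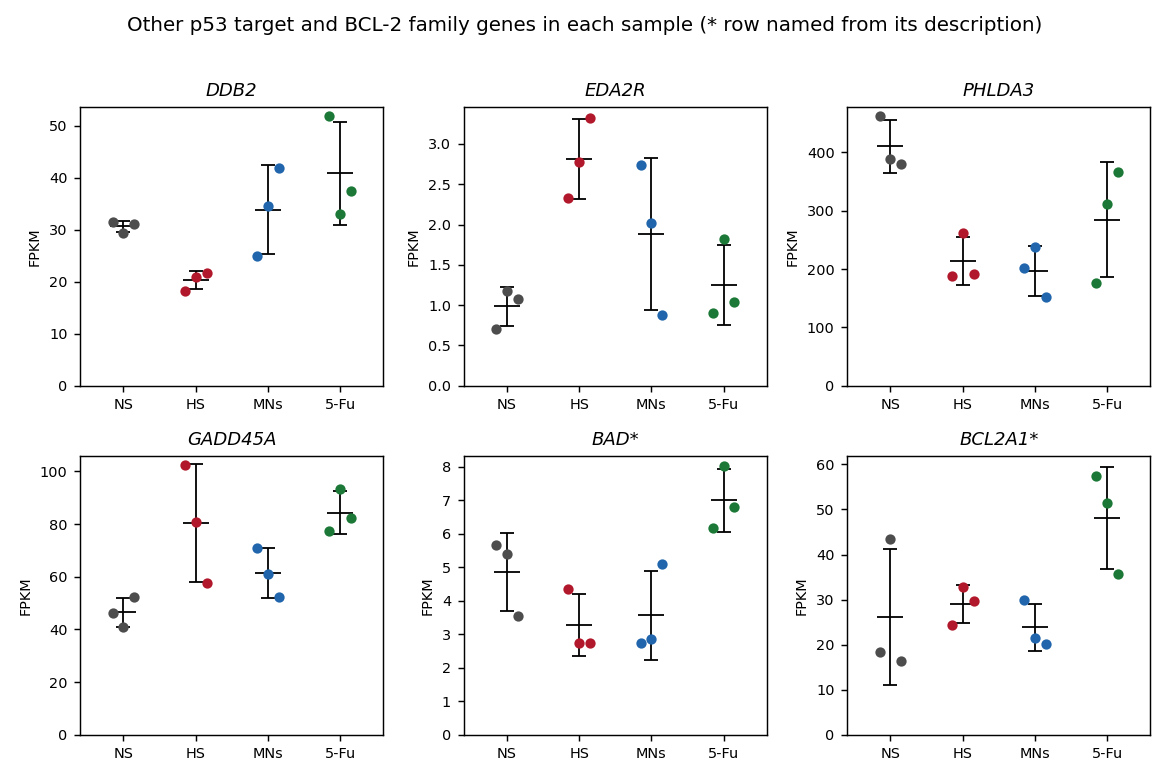
FPKM of further genes of the p53 pathway in each of the 12 samples (1 point a sample, 4 groups of 3), with the group mean ± SD in black, each gene on its own vertical axis from 0 and an asterisk at rows named from their description. DDB2 was at 18.3 to 21.7 FPKM in HS, under each injected sample, and the 3 highest BAD values were those of the 5-Fu injection group.

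Genes that p53 lowers through p21 and the DREAM repressor complex are genes of cell division, and 13 of 16 had a row, with 12 tested. After injection 0 of 12 was called against HS, against 2.29% of all genes, with log2 fold changes from -0.57 to 0.31. At an unadjusted p under 0.05, 0 was higher and 0 lower, against 11.6% and 14.4% of all genes. The median was 0.05 with the rows recognised by description and -0.06 over the 9 genes named by symbol, so its sign depends on those rows. In scar against normal skin 2 of 12 were called, both higher, against 5.00% of all genes called and 3.53% called higher. CCNB2, a mitotic cyclin, rose by 1.41 (standard error 0.35, adjusted p from limma 0.0340), from 4.81, 6.40 and 6.18 FPKM in NS to 13.6, 20.2 and 17.7 FPKM in HS. TOP2A, the topoisomerase of dividing cells, rose by 1.08 (standard error 0.29, adjusted p 0.0488), from 2.14, 4.07 and 1.75 FPKM to 5.27, 6.17 and 8.23 FPKM. Both TOP2A thresholds were passed narrowly. The calls of CCNB2 and TOP2A were not followed over the alternatives, among which rescaling to total reads moved the median of all genes to -0.33. The groups did not overlap in 9 of 12 genes, against 33.3% of all genes, and the list's median was 0.74 (0.72 over the 9 genes named by symbol), where that of all genes was -0.01.

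In the injected scars CCNB2 was at 7.73, 21.1 and 19.0 FPKM and TOP2A at 2.91, 6.18 and 3.51 FPKM, which overlapped with HS for both genes. Against NS, CCNB2 had 1.22 (adjusted p from limma 0.196), the survivin gene BIRC5 had 0.90 (adjusted p 0.368) and the mitotic kinase gene PLK1 had 0.68 (adjusted p 0.274) after injection, without overlap. CDKN1A and each of the 12 division genes tested overlapped between injected and untreated scars, where 30.3% of all genes did not overlap.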

How the data were processed

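RNA of 12 samples in 4 groups of 3 was analysed, grouped by their labels. The authors enriched mRNA on poly-T beads, sequenced it on a NovaSeq and deposited 1 table of FPKM values for 29587 genes, 14494 with a symbol and 8170 at 0 in all samples. Aligner, counting tool and genome build are not given in the sources used here. Multiplied by gene length, at least 99.9881% of each sample's values were whole reads within a tolerance of 0.05, so reads were counted back.

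The members and lists were chosen with earlier results of these data known. The match by description was added once the names in the table were known. Where several rows shared a name, the row with the highest mean was used, and reads shared between such copies make it uncertain. Genes of the lists were named when called or, with none called, as up to 3 with the largest fold change among those without overlap.

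All groups entered 1 linear model on log2(FPKM + 1) in limma 3.58.1 (R 4.3.3) with an intensity trend, and p-values were adjusted by Benjamini-Hochberg over the 13287 genes averaging at least 1 FPKM. The study tested counts with DESeq2, which was not used here. An exact permutation test of 3 against 3 cannot go below 0.1, so none was used. The procedure was tested on simulated data. Some listed genes are not reported here. A planned search for p53 sites in promoters was not run.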

Additional observations from a re-analysis of the deposited data

How the results depend on the processing

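Member calls were the same under 10 alternatives in each comparison except HS against NS, where rescaling to total reads left 0 members called. Leaving out 1 sample at a time gave 0 to 1 members called for 5-Fu injection against HS, the 1 being ZMAT3, and 1 to 1 for HS against NS. Counts over all genes depended more on the fit. For 5-Fu injection against HS, 304 genes became 585 with adjusted p alone, 93 without the filter on low values and 0 with only the groups compared, and 0 to 803 with 1 sample left out (9 without HS replicate 1, 0 without HS replicate 2, 0 without HS replicate 3, 16 without 5-Fu injection replicate 1, 803 without replicate 2 and 12 without replicate 3). For HS against NS, 665 became 1060 after rescaling and 382 to 653 with 1 sample left out. For drug-loaded MNs against HS, 1 became 2 without the filter, 2 without trend, 0 with voom and 37 with only the groups compared, and 0 to 2 with 1 sample left out. For 5-Fu injection against drug-loaded MNs, 0 became 1 without the filter and 0 to 12 with 1 sample left out. For 5-Fu injection against NS, 1 became 2 with a pseudocount of 0.1, 2 without the filter, 3 with a mean FPKM of at least 5, 3 with quantile normalization, 4 after rescaling, 0 without trend and 0 with only the groups compared, and 0 to 20 with 1 sample left out. The cause was not tested.

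Rescaling reversed the log2 fold change of MDM2 (0.050) and CCNG1 (0.0053) for drug-loaded MNs against HS, of BAX (-0.16), FAS (-0.18) and CCNG1 (-0.094) for HS against NS, and of MDM2 (-0.13) for 5-Fu injection against NS. Of the fold changes with 1 sample left out, those that reversed ranged for 5-Fu injection against HS from -0.011 to 0.40 (FAS). For drug-loaded MNs against HS they ranged from -0.21 to 0.031 (MDM2), -0.28 to 0.055 (FAS) and -0.26 to 0.045 (CCNG1). For HS against NS they ranged from -0.29 to 0.14 (BBC3) and -0.17 to 0.46 (FAS). For 5-Fu injection against drug-loaded MNs they ranged from -0.044 to 0.42 (CDKN1A) and -0.29 to 0.11 (SESN1), and against NS from -0.26 to 0.13 (SESN1). Genes under a mean FPKM of 5, FAS among them, have no value under that filter. BBC3, with at most 62 reads a sample, is the member that depth limits most.

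Samples with the same number in 2 groups came from different rabbits. Their deviations correlated between -0.116 and 0.00687 for 5-Fu injection against HS, -0.17 and 0.441 for drug-loaded MNs against HS, -0.214 and 0.0877 for HS against NS, -0.0156 and 0.18 for 5-Fu injection against drug-loaded MNs, and 0.0539 and 0.198 for 5-Fu injection against NS, where alone all 3 samples correlated best with their own number. With the replicate block, genes called were 99 for 5-Fu injection against HS, 0 for drug-loaded MNs against HS and 0 for 5-Fu injection against NS, and the block changed no member's call.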
